A study of Mus musculus with 13 samples.

Results

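The regions described here are stretches of chromatin that carried a bivalent state in mouse neural stem cells (NSCs) and were listed with H3K27me3 but without H3K4me3 in oligodendrocyte precursor cells (OPCs). They were selected on the measured peaks themselves. Every NSC H3K4me3 peak that shared at least 1 bp with an NSC H3K27me3 peak was merged with it into a domain, which gave 6826 domains. Of these, 1609 overlapped an OPC H3K27me3 peak and no OPC H3K4me3 peak, or 23.6% of all NSC bivalent domains. They spanned 2366 kb in total. Among the other NSC domains, 936 were listed with both marks in OPCs (kept bivalent), 638 with H3K4me3 only and 3643 with neither mark.

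The marks were measured by ChIP-Seq, sequencing of DNA recovered with an antibody against a chromatin protein, in NSCs, OPCs and newly formed oligodendrocytes (NFOs), with 1 library for each mark in each cell type. OLIG2, a transcription factor of the oligodendrocyte lineage, was measured in the same way in OPCs and NFOs. NSCs were cultured cortical cells of E14.5 embryos that the methods describe as from CD-1 mice, whereas their label names C57BL/6. OPCs and NFOs were purified from postnatal day 7 C57BL/6 brains by immunopanning on PDGFRα and on GalC, and no group was treated or carried a mutation. NSCs were therefore grown in culture and the other cell types were not, and this difference cannot be told apart from the stage. All values come from bulk populations, in which marks on different cells cannot be told apart from marks on the same chromatin. With 1 library per group no difference between cell types had a replicate check and none was tested.

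The 6 histone lists held 12688 to 36069 peaks. The antibody label of each histone library names the mark opposite to its title, and the title was used. H3K4me3 within 2 kb of a transcription start site (TSS) was listed at 6 of 6 NSC marker genes in NSCs and at 5 of 5 OPC marker genes in OPCs, but at only 1 of 7 NFO marker genes in NFOs, where Mbp, Mog, Mag, Enpp6 and Myrf were among those without an H3K4me3 peak. Neuronal marker genes had H3K4me3 at 4, 4 and 3 of 4 in NSCs, OPCs and NFOs, and astrocyte marker genes at 2, 1 and 0 of 4. No endothelial marker gene of 4 had H3K4me3 in any cell type, and of 5 microglial marker genes only Csf1r had it, in OPCs. The lists give called peaks alone, so a missing peak is not a measured zero. NSC peaks came from single-end and OPC and NFO peaks from paired-end reads, so widths are on different scales across cell types.

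As background, H3K4me3 is laid down by trithorax-group complexes and marks the starts of active genes, and H3K27me3 is laid down by Polycomb repressive complex 2 and accompanies repressed developmental genes. In stem cells both marks can be found over the same promoter, most often a CpG-rich promoter of a gene for a transcription factor or a signal of another lineage. Such bivalent promoters can lose either mark as cells take on a fate. OLIG2 is a basic helix-loop-helix factor that binds DNA at E-boxes, whose letters are CANNTG.

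Reference sequence of GRCm38 (mm10), plus strand, shows how the domains differed in CpG content. Each window below is the middle 120 bases of the stretch shared by the NSC marks, outside annotated exons, with CpG dinucleotides in capitals. The first lies in an intron of Pax9 (chr12:56697385-56697504), in the domain under the widest OPC H3K27me3 peak of any domain at a protein-coding TSS. The second, from the domains more than 2 kb from a TSS, has the median CpG ratio and window count of the 1609 domains and lies in an intron of Jam3 (chr9:27140444-27140563) at 8107 bp from the nearest protein-coding TSS. The third, from the kept bivalent domains at a TSS, has their median count and ratio and lies in an intron of A4galt (chr15:83250551-83250670).
Pax9: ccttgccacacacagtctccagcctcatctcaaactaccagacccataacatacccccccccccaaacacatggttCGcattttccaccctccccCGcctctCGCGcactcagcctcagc
Jam3: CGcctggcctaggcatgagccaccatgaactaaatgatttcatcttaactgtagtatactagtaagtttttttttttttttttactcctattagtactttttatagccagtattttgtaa
A4galt: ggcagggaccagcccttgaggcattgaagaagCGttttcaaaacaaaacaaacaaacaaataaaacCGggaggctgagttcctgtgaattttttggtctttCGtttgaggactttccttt

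The windows held 4, 1 and 3 CpGs. Over all 1590 windows that could be drawn from the domains with H3K27me3 only in OPCs, the median was 1 CpG, and 40.3% of the windows had none. Over 914 windows of the kept bivalent domains the median was 3 CpGs and 17.9% had none. Over whole domains, the ratio of observed to expected CpGs had a median of 0.221 in the domains with H3K27me3 only, against 0.536 in the kept bivalent domains, 0.520 in those with H3K4me3 only and 0.177 in those with neither mark. A ratio of at least 0.6 was found at 50 of the 1609 domains (3.11%), and at 324 of the 936 kept bivalent domains (34.6%). In CpG ratio the domains thus lay nearer to those that lost both marks than to those that kept H3K4me3. The share of repeat-masked bases had a median of 34.2%, against 15.3% in the kept bivalent domains, 20.2% in those with H3K4me3 only and 49.0% in those with neither mark. These sequence features were not used by the rule.

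**Figure D1:**
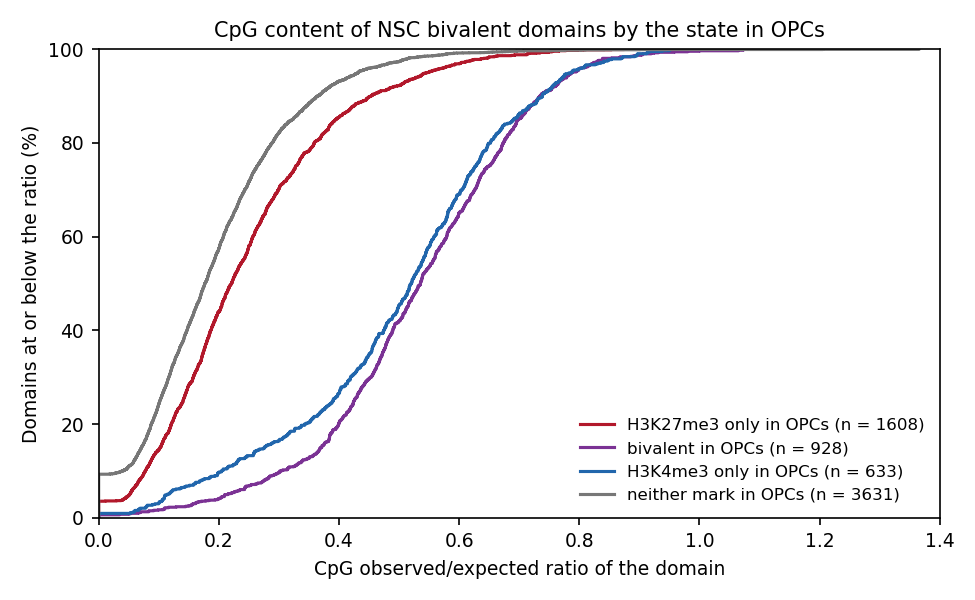
Cumulative share of NSC bivalent domains (vertical axis, %) at or below each CpG observed/expected ratio (horizontal axis), by the state in OPCs. The curve of the domains with H3K27me3 only (red, median 0.221) runs close to that of the domains with neither mark (grey, median 0.177), and the curves of the domains that kept H3K4me3 lie to the right.

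Most of the 1609 domains lay away from genes' starts. A TSS of a protein-coding gene or long noncoding RNA (lncRNA) lay within 2 kb of 448 of them, or 27.8% (exact 95% binomial interval 25.7 to 30.1), where all NSC bivalent domains gave 32.6%. The share was 79.6% (76.9 to 82.1) of kept bivalent domains, 79.9% (76.6 to 83.0) of domains with H3K4me3 only and 14.3% (13.2 to 15.5) of domains with neither mark. Such intervals cover counting error only, and neighbouring domains are not independent. The share depended on the peaks admitted, since among the 194 domains left with histone peaks above 5-fold 56.7% lay within 2 kb of a TSS, and on the distance, since 16.2% of the domains lay within 1 kb of one. Of the remaining domains with H3K27me3 only, 710 lay between genes, 351 in introns and 100 over exons, all more than 2 kb from a TSS. An OPC H3K4me3 peak lay within 1 kb of 4.47% of the domains, within 5 kb of 36.5% and within 10 kb of 51.4%.

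The marks by which the domains were chosen are given here as a description. The widest NSC H3K4me3 peak at a domain had a median width of 266 bp (quartiles 207 and 548 bp), and only 113 domains had an NSC H3K4me3 peak of at least 1000 bp. The same median was 1622 bp in the kept bivalent domains and 2321 bp in those with H3K4me3 only. A single NSC H3K4me3 peak was listed at 1493 of the 1609 domains. Fold enrichment, the ratio of a peak's signal to its control as the peak caller gave it, had a median of 3.84 for NSC H3K4me3. The widest NSC H3K27me3 peak had a median of 670 bp and the highest fold enrichment a median of 4.28. In OPCs the widest H3K27me3 peak had a median of 588 bp (quartiles 225 and 1205 bp) and the highest fold enrichment a median of 5.24. The OPC peak overlapped the NSC H3K4me3 peak itself, and not just its H3K27me3 flank, at 1548 domains (96.2%).

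The widths had a long tail. The widest OPC H3K27me3 peak was under 500 bp at 735 domains and at least 5000 bp at 117. The widest OPC peak was wider than the widest NSC H3K27me3 peak at 510 domains (31.7%), and the highest OPC fold enrichment was above that of NSC H3K27me3 at 1068 (66.4%), on scales that differ between the libraries. In all, 1802 distinct OPC peaks lay over the domains. At 55 domains (3.42%) the OPC peak also reached a kept bivalent domain, and 42 domains shared an OPC peak with another domain of the same class. At the limits of the rule, the smallest overlap with an OPC H3K27me3 peak was 18 bp and 3 domains had under 50 bp. Just outside, 2 domains with neither mark had an OPC H3K27me3 peak within 50 bp, and 2 kept bivalent domains overlapped OPC H3K4me3 by under 50 bp, the smallest by 6 bp. Of the 1609 domains, 1 had an OPC H3K4me3 peak within 50 bp.

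**Figure D2:**
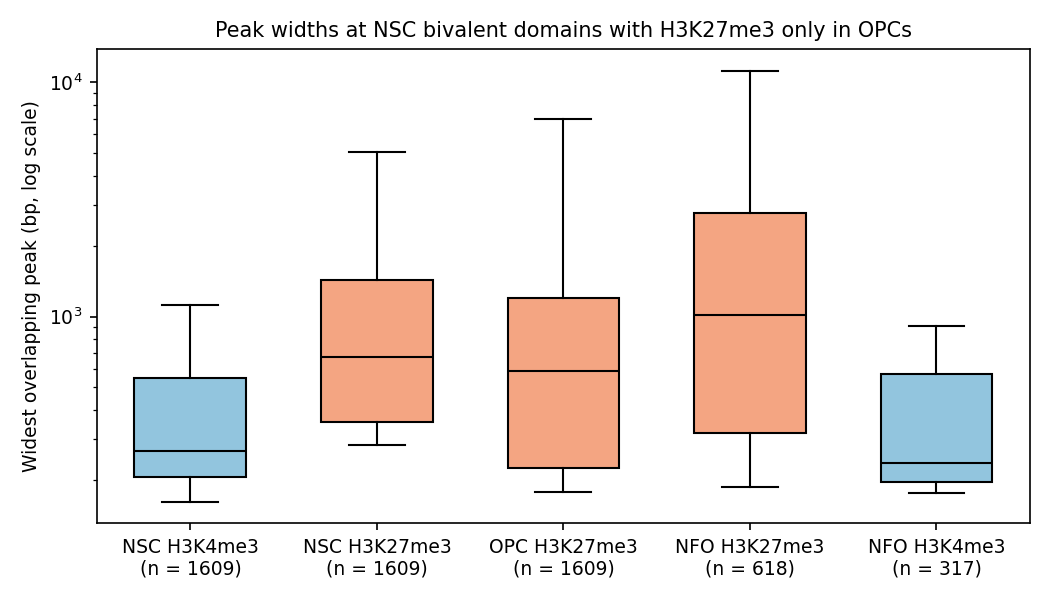
Width of the widest overlapping peak (bp, log scale) at the NSC bivalent domains with H3K27me3 only in OPCs, for each list with such a peak. Boxes give quartiles and the median, and whiskers run from the 5th to the 95th percentile. H3K4me3 peaks were narrow in NSCs (median 266 bp) and NFOs (237 bp), and H3K27me3 peaks in OPCs spread from a median of 588 bp into a tail of several kilobases.

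The NFO libraries were not used in the choice of domains. An NFO H3K27me3 peak overlapped 618 of the 1609 domains, or 38.4% (36.0 to 40.8), where all NSC bivalent domains gave 19.1% and all OPC H3K27me3 peaks gave 25.4%. It covered at least 50% of the domain at 23.1%. An NFO H3K4me3 peak overlapped 317, or 19.7% (17.8 to 21.7), where all NSC bivalent domains gave 28.3%. Taken jointly, 883 domains (54.9%) were listed with neither mark in NFOs, 409 (25.4%) with H3K27me3 only, 209 (13.0%) with both marks and 108 (6.71%) with H3K4me3 only. The largest group of domains was thus without a listed mark at the NFO stage.

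The other classes differed. Kept bivalent domains had NFO H3K27me3 at 70.0% (66.9 to 72.9) and NFO H3K4me3 at 79.0% (76.2 to 81.5). Domains with H3K4me3 only in OPCs had NFO H3K27me3 at 1.88% and NFO H3K4me3 at 78.4%, and those with neither mark had 0.494% and 10.3%. The NFO H3K27me3 list is the shortest of the histone lists, with 12688 peaks against 29417 in OPCs, and the part of that difference in the NFO shares was not tested.

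**Figure D3:**
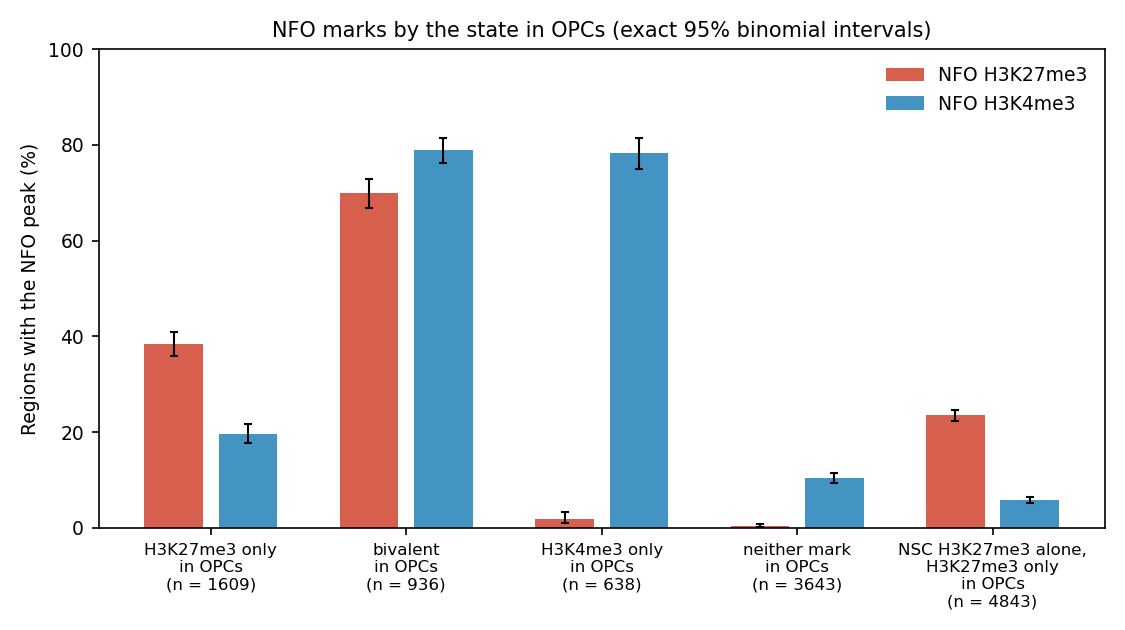
Share of regions (%) with an NFO H3K27me3 peak (red) or an NFO H3K4me3 peak (blue), for the NSC bivalent domains by their state in OPCs and, at the right, for NSC H3K27me3 peaks without H3K4me3 that were H3K27me3 only in OPCs. Error bars are exact 95% binomial intervals. The domains with H3K27me3 only in OPCs stood at 38.4% and 19.7%, below the kept bivalent domains for both marks and above the regions that had H3K27me3 alone in NSCs.

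NFO H3K27me3 was more frequent in wider domains. NFO H3K27me3 was listed at 28.8% (25.2 to 32.5) of domains under 500 bp, at 29.9% (25.1 to 35.0) of those of 500 to 1000 bp, at 35.9% (31.0 to 41.0) of those of 1000 to 2000 bp, at 66.3% (59.2 to 73.0) of those of 2000 to 5000 bp and at 91.7% (83.6 to 96.6) of those of 5000 bp or more. A wider region also has more room to overlap a peak, and the part of that was not tested. Per base, NFO H3K27me3 covered 39.6% of the domains' length and 58.7% of that of the kept bivalent domains. Where the widest OPC peak was at least 5000 bp wide, 116 of 117 domains had NFO H3K27me3, against 147 of 735 (20.0%) where it was under 500 bp. In the domains with NFO H3K27me3 the widest OPC H3K27me3 peak had a median of 1408 bp and the highest fold enrichment a median of 6.67. In the 991 domains without it these medians were 338 bp and 4.38. Where both cell types had a peak, the widest NFO peak exceeded the widest OPC peak at 203 of 618 domains (32.8%).

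Domains over repeats kept the mark less often in the lists. NFO H3K27me3 was found at 95 of 489 domains with more than 50% of their bases repeat-masked (19.4%, 16.0 to 23.2) and at 523 of 1119 others (46.7%, 43.8 to 49.7). It was found at 56.7% (52.0 to 61.3) of the domains within 2 kb of a TSS and at 31.4% (28.7 to 34.1) of those farther away. Width, repeats and TSS distance moved together, and their separate parts were not tested.

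The regions most alike were NSC H3K27me3 peaks that had no H3K4me3 in NSCs and were also H3K27me3 only in OPCs, of which there were 4843. They had NFO H3K27me3 at 23.5% (22.3 to 24.7) and NFO H3K4me3 at 5.82% (5.18 to 6.52), both below the formerly bivalent domains, and NFO H3K27me3 covered 19.2% of their bases. At matched width, NFO H3K27me3 was 19.9% (18.4 to 21.5) against 28.8% under 500 bp, 21.1% (18.7 to 23.6) against 29.9% at 500 to 1000 bp and 27.4% (24.6 to 30.3) against 35.9% at 1000 to 2000 bp, with intervals that did not overlap. At 2000 to 5000 bp it was 58.9% (51.5 to 66.1) against 66.3%, and at 5000 bp or more 19 of 20 (interval 75.1 to 99.9) against 91.7%, with intervals that overlapped. Width was the only feature matched. In the regions without NSC H3K4me3 the median highest H3K27me3 fold enrichment was 3.67 against 4.28 in NSCs and 4.47 against 5.24 in OPCs. A TSS lay within 2 kb of 11.7% of them, against 27.8%. The part of these differences in the NFO shares was not tested.

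For NFO H3K4me3 the intervals were apart in every width class. The formerly bivalent domains had it at 13.1% (10.5 to 16.0) under 500 bp and at 45.2% (34.3 to 56.5) at 5000 bp or more, where the regions without NSC H3K4me3 had 4.14% (3.40 to 4.98) and 10.0% (1.23 to 31.7). At 303 of the 317 domains with NFO H3K4me3 (95.6%) the NFO peak overlapped the NSC H3K4me3 peak itself. These NFO peaks were narrow, with a median of 237 bp and a fold enrichment of 3.57, in a list whose overall median was 256 bp against 987 bp in OPCs. Whether the same bases are enriched by more than 1 antibody for reasons other than the marks was not tested, because the input DNA libraries were not analysed here.

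**Figure D4:**
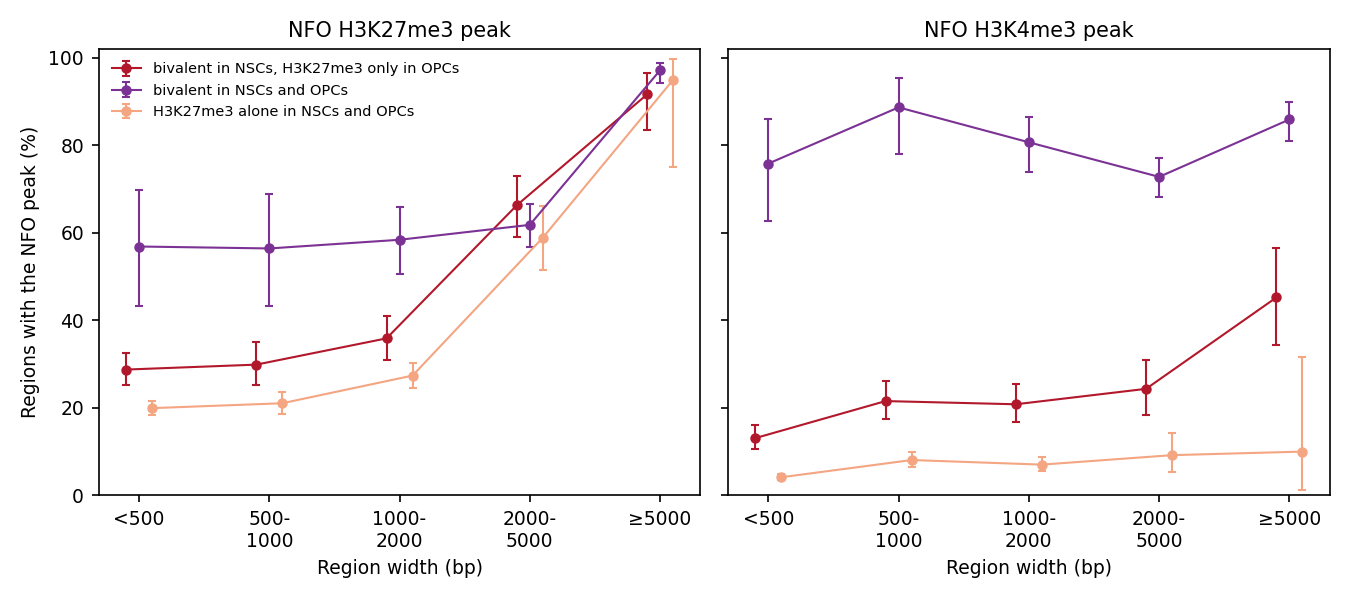
Share of regions (%) with an NFO H3K27me3 peak (left) or an NFO H3K4me3 peak (right) by region width (bp). Points are shares and bars exact 95% binomial intervals for the domains with H3K27me3 only in OPCs (red), the kept bivalent domains (purple) and regions with H3K27me3 alone in NSCs and OPCs (orange). The red H3K27me3 share was higher in each wider class, up to 91.7%, and H3K4me3 in red stood above orange and below purple in every class.

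Protein-coding genes with a TSS within 2 kb of these domains numbered 391, or 1.78% of 21924 gene symbols, and lncRNA genes 120, or 0.897% of 13374. A kept bivalent domain also lay within 2 kb of a TSS of 39 of the coding genes. At 172 of the 391 (44.0%) no annotated TSS of the gene had OPC H3K4me3 within 2 kb. Parts of these genes farther from a TSS were not examined for the mark. Some of them, such as Foxa2 and Fgf4, had no H3K4me3 at a TSS in NSCs either, and the number of such genes is not given here. Of these 172 genes, 133 (77.3%, 70.3 to 83.4) had NFO H3K27me3 at a TSS, 44 (25.6%) had NFO H3K4me3 and 23 (13.4%) had an OLIG2 peak in OPCs or NFOs. The same shares over all genes are not given here. A gene counted if any of its TSSs had the peak, so these shares are not comparable with those per domain. No RNA level was measured in these samples.

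Of the 117 domains with an OPC H3K27me3 peak of at least 5000 bp, 43 (36.8%, 28.0 to 46.2) had a protein-coding TSS within 2 kb, and the widest peak of all, of 27521 bp, lay over domains without one. NFO H3K4me3 was listed at 66 of the 117 (56.4%, 46.9 to 65.6), where all 1609 domains gave 19.7%. Domains with the widest peaks at a coding TSS are described next. A list often held several peaks over 1 domain, and a width given for a gene is that of the widest of them unless more are named. NFO H3K4me3 is not stated for every gene, and was also listed at the described domains of, for example, Nkx2-5, Six6, Bsx, Tbx3, Vax2, Gata3, Hoxb13 and Slc6a5. Pax9, a factor of tooth, thymus and skeletal development, had 3469 bp of H3K4me3 and 7442 bp of H3K27me3 in NSCs (domain chr12:56692544-56699985). Its H3K27me3 peak was 23957 bp wide in OPCs (5.37-fold) and 22231 bp wide in NFOs (5.17-fold), and no later H3K4me3 peak was listed. Foxa2, a factor of endoderm and floor plate, had 446 bp of NSC H3K4me3 inside 18638 bp of H3K27me3 (chr2:148036945-148055582), followed by an OPC peak of 20043 bp and an NFO peak of 19091 bp. Over the same domain NFOs had an H3K4me3 peak of 212 bp at 6.57-fold. In none of the cell types, NSCs included, was H3K4me3 listed within 2 kb of a TSS of Foxa2. Wt1, a factor of kidney and gonad, had 1628 bp of NSC H3K4me3 within 24523 bp of H3K27me3, and later H3K27me3 peaks of 15504 bp (OPCs) and 14938 bp (NFOs). NFOs also had 3 H3K4me3 peaks over the Wt1 domain, the widest of 221 bp.

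Nkx2-5, a cardiac homeobox factor, lay in the widest of the 1609 domains, of 27929 bp (chr17:26833844-26861772), with 617 bp of NSC H3K4me3. Its H3K27me3 was listed in OPCs as 3 peaks, of 23579 bp in sum and 17404 bp at the widest, and in NFOs as 7 peaks, of 22810 bp in sum and 7932 bp at the widest. The mark was therefore split into more pieces in the NFO list while its summed width was close to that in the OPC list. Six6, an eye field factor, was split likewise, from an NSC peak of 23876 bp into 5 OPC peaks of 20472 bp in sum and 5 NFO peaks of 18656 bp in sum. The widest OPC peak there was 10526 bp at 5.89-fold, and the highest was 3201 bp at 11.3-fold. Fezf1, a forebrain zinc finger factor, had an NSC peak of 14615 bp, 2 OPC peaks of 17896 bp in sum and 3 NFO peaks of 15866 bp in sum, with NFO H3K4me3 of 957 bp. At Tbx3, a limb and heart T-box factor, the domain was only 405 bp and overlapped an OPC H3K27me3 peak of 23950 bp, and the gene also had a kept bivalent domain. Cdkn2a, which encodes the INK4A and ARF tumour suppressors, had an H3K27me3 peak of 18415 bp in NSCs that measured 23311 bp at 5.87-fold in the OPC list and 21445 bp at 5.46-fold in that of NFOs. It too had a kept bivalent domain within 2 kb of a TSS.

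Bsx, a hypothalamic homeobox factor, had 2 domains under a shared OPC peak of 14894 bp, and Otx2, a forebrain and midbrain factor, had 2 under a shared OPC peak of 17478 bp. At Otx2 the NFO peaks over these domains were 255 and 2236 bp, and OPC H3K4me3 was listed at a TSS of the gene. A domain of 17791 bp at Gm21188 and Gm36079 on chromosome 13 belongs to a family of near-identical gene copies, so its reads may be shared and its values are uncertain.

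Other domains had tall OPC peaks, most of them narrow. A fold enrichment of at least 10 was found at 97 domains, where the widest OPC H3K27me3 peak had a median of 481 bp, and 80 of them (82.5%, 73.4 to 89.4) had NFO H3K27me3. Wnt11, a noncanonical Wnt ligand, had the highest value of the domains at protein-coding TSSs, 20.9-fold over 280 bp in OPCs, and 5.14-fold over 1122 bp in NFOs. At Slit1, an axon guidance ligand, 15.8-fold over 257 bp in OPCs was followed by 7.83-fold over 200 bp in NFOs. Onecut3, a neuronal factor, had a tall OPC peak of 343 bp at 16.6-fold, among 5 OPC peaks over a wide NSC domain of 11630 bp. Eps8l1, Etl4 and Gfi1b had 16.2, 15.5 and 13.8-fold over 240, 291 and 654 bp.

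**Figure D5:**
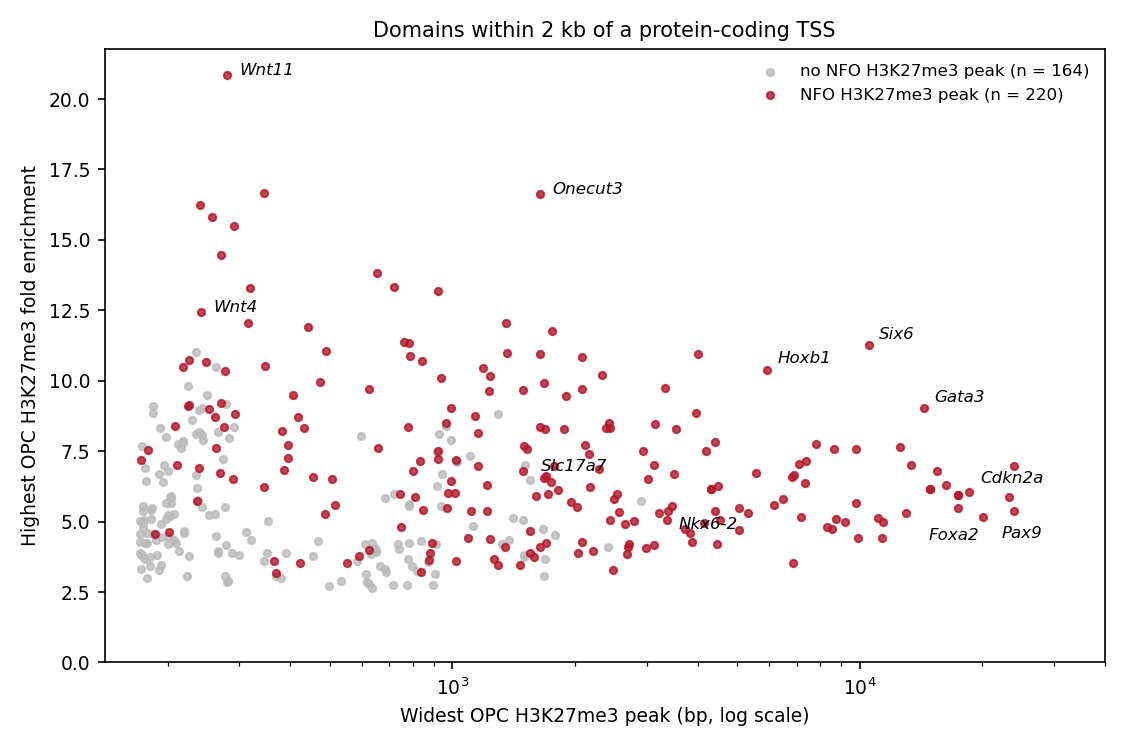
Highest OPC H3K27me3 fold enrichment (vertical axis) against the width of the widest OPC H3K27me3 peak (bp, log scale) for the 384 domains within 2 kb of a protein-coding TSS. Red points had an NFO H3K27me3 peak (n = 220) and grey points had none (n = 164). Grey points lie mostly at small widths, and the widest peaks and the tallest peaks are red.

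Gene lists were set against the share of 1.78% of all protein-coding symbols at these domains, and against 19% of the 2062 coding symbols with a TSS within 2 kb of any NSC bivalent domain. The first base also counts genes that were not bivalent in NSCs. Of 39 Hox genes, which pattern the body axis, 4 lay at such a domain (Hoxb1, Hoxb13, Hoxc6 and Hoxc8), whereas 36 lay at a kept bivalent domain. None of the 4 had OPC H3K4me3 at a TSS, but only Hoxc8 of them had H3K4me3 there in NSCs. All 39 had an NSC bivalent domain, so that the share was 10.3% on either base, above the first and below the second. Hoxb13 had OPC H3K27me3 of 13375 bp at 7.00-fold and NFO H3K27me3 of 7448 bp. Hoxc6 and Hoxc8 shared a domain with an OPC peak of 9817 bp and an NFO peak of 31382 bp, and NFO H3K4me3 of 1181 bp. Hoxc6 also had a kept bivalent domain within 2 kb of a TSS. Of 117 genes of other homeobox families, 16 lay at these domains (13.7%, or 18.4% of the 87 with an NSC domain) and 71 at kept bivalent domains, and 13 of the 16 had no OPC H3K4me3 at a TSS. Vax2, of the ventral eye, had H3K27me3 peaks of 16616, 11081 and 21409 bp in NSCs, OPCs and NFOs.

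Of 44 forkhead genes 5 lay at these domains (11.4%, or 22.7% of the 22 with an NSC domain) and 18 at kept bivalent domains. No OPC H3K4me3 was listed at a TSS of 3 of the 5. Foxe3, Foxl1, Foxf1 and Foxd2 had OPC H3K27me3 peaks of 2943, 2390, 3127 and 8735 bp, and the last pair also had kept bivalent domains. Of 16 T-box genes 2 lay at these domains (Tbr1 and Tbx3), among 10 with an NSC domain, and of 6 GATA genes 1 did, among 4. Tbx3 and Gata3 had OPC H3K4me3 at a TSS, and Tbr1 did not. Gata3 had OPC peaks of 14402 bp at 5.81-fold and 10906 bp at 9.02-fold, and NFO peaks of 10831 bp at 5.67-fold and 5281 bp at 9.58-fold. Pdx1, the pancreatic factor, which a high NFO H3K4me3 value placed among the named genes, had 4 H3K4me3 peaks in NSCs, the widest of 950 bp at 3.28-fold and the highest of 329 bp at 8.15-fold, and one of 311 bp at 7.51-fold in NFOs, with H3K27me3 peaks of 16297, 12601 and 11269 bp in the 3 cell types. Prdm14, a germ cell factor, had NFO H3K4me3 of 263 bp at 6.95-fold and H3K27me3 of 4432 bp. No Sox gene of 19 lay at a domain with H3K27me3 only, among 7 with an NSC domain.

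Secreted signals included 5 of 19 Wnt ligands (26.3%), 3 of 22 fibroblast growth factors (13.6%) and 2 of 14 hedgehog pathway genes. Of the genes with an NSC domain these were 5 of 8, 3 of 9 and 2 of 5, beside the share of 19%. Of the same genes 3, 1 and 1 had no OPC H3K4me3 at a TSS, whereas Wnt11, Wnt16, Fgf8, Fgf18 and Cdon had it. Only 3 Wnt ligands lay at kept bivalent domains. Wnt3a, a canonical ligand of the dorsal midline, had 883 bp of H3K4me3 and 1868 bp of H3K27me3 in NSCs, then H3K27me3 peaks of 1349 bp (OPCs) and 1133 bp (NFOs), with no later H3K4me3. Wnt10b had 1021 and 769 bp of H3K27me3 in OPCs and NFOs, and Wnt16 had 4548 and 4701 bp. Wnt4 differed, since H3K4me3 made up its whole NSC domain of 2595 bp and H3K27me3 only 312 bp of it, and its OPC H3K27me3 was a narrow peak of 241 bp at 12.4-fold. Rspo1, which amplifies Wnt signalling, had 2690 bp of OPC H3K27me3. Fgf4, Fgf8 and Fgf18 had up to 4152, 1190 and 937 bp in OPCs. Fgf4 had no H3K4me3 at a TSS in NSCs or in OPCs. Ihh, a hedgehog ligand, had peaks of 2702 bp (OPCs) and 1711 bp (NFOs) with no later H3K4me3, and Cdon, a hedgehog co-receptor, a narrow OPC peak of 272 bp at 11.9-fold, among 3 OPC peaks. No gene of the list of BMP and TGF-beta signalling, of 28, lay at a domain of this class, and 6 of the 28 had an NSC domain.

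Of 49 neuronal transcription factors 5 lay at these domains (10.2%, or 12.8% of the 39 with an NSC domain) and 37 at kept bivalent domains. Tbr1 and Ebf3 were the 2 of the 5 without OPC H3K4me3 at a TSS. Tbr1, of deep-layer cortical neurons, had 951 bp of H3K4me3 in NSCs, none in OPCs and 193 bp in NFOs, with H3K27me3 of 4047 bp, 7397 bp and 8933 bp in the same order. Ebf3 had 11402 bp of H3K27me3 in OPCs, and Onecut1 and Prdm8 had 5314 and 6494 bp over small domains of 1003 and 401 bp. A kept bivalent domain also lay within 2 kb of a TSS of Ebf3, Gata3 and Onecut1. Of 33 genes of neuronal function 3 lay at these domains (9.09%), among 10 with an NSC domain. Of the 3, Slc17a7 had no OPC H3K4me3 at a TSS, and Slc32a1 and Grin1 had it. Slc17a7, the vesicular glutamate transporter VGLUT1, had a wide NSC H3K4me3 peak of 2531 bp and then H3K27me3 alone, with widest peaks of 1814 bp (OPCs) and 1832 bp (NFOs). Slc32a1, the vesicular GABA transporter, had an OPC peak of 9795 bp and an NFO peak of 1686 bp. Its H3K4me3 at a TSS was listed in OPCs but not in NSCs. Slc6a5, the glycine transporter GlyT2, had peaks of 12997 and 5932 bp in these cells. At Grin1, an NMDA receptor subunit, the OPC peak was 174 bp and no NFO H3K27me3 was listed.

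Of 30 oligodendrocyte lineage genes, 6 with an NSC domain, 1 lay at such a domain, and it was Nkx6-2, a homeobox factor expressed in oligodendrocytes. It had 1683 bp of H3K4me3 and 2967 bp of H3K27me3 in NSCs (chr7:139581075-139585608), H3K27me3 of 3380 bp at 4.46-fold in OPCs and of 4127 bp at 4.92-fold in NFOs, and no H3K4me3 peak in either. Of 30 neural stem cell genes 3 lay at these domains, among 11 with an NSC domain, and 1 of the 3 had no OPC H3K4me3 at a TSS. Rax, a factor of the eye and hypothalamus, had OPC and NFO peaks of 2651 and 5119 bp, and Dach1 had 1549 and 1096 bp beside OPC H3K4me3 at a TSS of the gene. Of 16 astrocyte genes 1 did, Fgfr3, the only one with an NSC domain. Its domain of 408 bp had no NFO H3K27me3, and OPC H3K4me3 was listed at a TSS of the gene. Other lists held 1 of 7 CDK inhibitors, 1 of 20 mesenchymal and pericyte genes, 1 of 26 Frizzled receptors and Wnt antagonists, 3 of 46 glutamate and GABA receptors, 2 of 80 potassium channels and 1 of 44 sodium and calcium channels. Of their genes with an NSC domain these were 50% (of 2), 14.3% (of 7), 14.3% (of 7), 25% (of 12), 13.3% (of 15) and 11.1% (of 9), beside the share of 19%. Further lists held 2 of 55 collagens and laminins, 2 of 62 axon guidance genes and 8 of 338 solute carriers. On the same base these were 33.3% (of 6), 25% (of 8) and 21.1% (of 38). There were also 2 of 365 Zfp zinc fingers (5.71% of 35) and 1 of 1418 olfactory and vomeronasal receptors (20% of 5). None of 91 cadherins and protocadherins lay at such a domain, among 6 with an NSC domain. No gene of the microglial list of 14 or the endothelial list of 14 lay at a domain of this class. None of the microglial genes had an NSC bivalent domain, so none could, and 3 of the endothelial genes had one.

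OLIG2 peaks were about as frequent here as among NSC bivalent domains as a whole. In OPCs 77 of the 1609 domains (4.79%, 3.79 to 5.95) had one, where all NSC bivalent domains gave 5.7%, and in NFOs 164 (10.2%, 8.76 to 11.8), where all gave 10.5%. In total 222 domains (13.8%, 12.1 to 15.6) had a peak in either cell type and 19 in both. All NSC bivalent domains gave 14.7% for either cell type. By this share the kept bivalent domains stood higher, at 197 of 936 (interval 18.5 to 23.8%). So did the domains with H3K4me3 only, at 22.9% (19.7 to 26.3), whereas those with neither mark had 12.1% (11.0 to 13.2). Per length, OLIG2 peak centres numbered 30.9 per Mb of domain in OPCs and 69.3 per Mb in NFOs. The kept bivalent domains had 19.4 and 28.0 per Mb, the domains with neither mark 61.1 and 126, and the genome 2.71 and 6.20. All NSC bivalent domains had 33.9 and 61.8 per Mb, and those with H3K4me3 only had 43.3 and 62.3. The regions with H3K27me3 alone in NSCs and OPCs had 41.5 and 101.6 per Mb. A density above that of the genome was thus shared by every set compared. The domains with NFO H3K27me3 had OLIG2 at 74 of 618 (interval 9.52 to 14.8%) and those without it at 148 of 991 (14.9%, 12.8 to 17.3), and the intervals overlapped.

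Among domains at protein-coding TSSs the highest OLIG2 values were at Map2k6, a kinase of the p38 pathway, with 41.1-fold in OPCs and 46.7-fold in NFOs, the latter over only 59 bp. Wnt4 followed with 20.3-fold in OPCs, then Slc11a2, Pdpk1, Slc9a3, Nkx2-5, Anxa4 and Acacb with 17.3, 17.0, 13.6, 13.5, 13.4 and 13.0-fold, in NFOs except for Anxa4 in OPCs. At Pdpk1, Acacb and Anxa4 no NFO H3K27me3 was listed. Hoxb13 and Hoxb1 had OPC OLIG2 peaks at 7.94 and 3.65-fold inside their H3K27me3, and Six6 and Prdm8 had NFO peaks at 7.94 and 9.61-fold.

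The next sequences are the 100 bases around the centre of the strongest OLIG2 peaks in these domains whose window held the E-box CAGCTG outside exons, with that motif in capitals, on the plus strand of GRCm38. The first lies between genes at 4760 bp from the start of Adap2 (chr11:80148379-80148478, NFO, 107-fold over a narrow peak), the second in an intron of Wnt4 (chr4:137279202-137279301, OPC, 20.3-fold) and the third in an intron of Pax3 (chr1:78167330-78167429, NFO, 11.0-fold).
Adap2: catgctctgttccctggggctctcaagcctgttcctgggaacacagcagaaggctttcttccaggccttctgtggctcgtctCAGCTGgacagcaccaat
Wnt4: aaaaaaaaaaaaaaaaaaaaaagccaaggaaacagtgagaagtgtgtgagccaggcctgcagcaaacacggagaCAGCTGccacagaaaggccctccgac
Pax3: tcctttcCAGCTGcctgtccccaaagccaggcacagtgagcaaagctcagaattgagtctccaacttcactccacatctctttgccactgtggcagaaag

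The motif reads alike on both strands. In the 200 bases around each peak centre it was found in 5 of 77 OPC peaks in these domains (6.49%) and in 12.2% of all OPC peaks, and in 20 of 170 NFO peaks (11.8%, 7.34 to 17.6) and 8.82% of all NFO peaks. The E-box CATATG was found in 2.60% (0.316 to 9.07) and 4.12% (1.67 to 8.30) of the peaks in the domains, where all peaks gave 5.51% and 5.65%. For both motifs the intervals contained the shares of all peaks. Any CANNTG, which includes both, was found in 54.5% (42.8 to 65.9) of the OPC peaks and 63.5% (55.8 to 70.8) of the NFO peaks in the domains, where all peaks gave 66.2% and 63.8%.

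The domains with the widest NSC H3K4me3 differed from the rest. Of the 113 domains with an NSC H3K4me3 peak of at least 1000 bp, 54.0% (44.4 to 63.4) lay within 2 kb of a TSS, 66.4% had NFO H3K27me3 and 38.9% (29.9 to 48.6) had NFO H3K4me3. Of the other 1496 domains, 36.3% (33.9 to 38.8) had NFO H3K27me3 and 18.2% (16.3 to 20.3) had NFO H3K4me3. The cut also selects domains of at least 1000 bp, and the 2 groups were not matched for width. From domains under 500 bp to those of 5000 bp or more, NFO H3K27me3 ran from 28.8% to 91.7% and the TSS share from 21.3% to 64.3%. The part of width in these differences was not tested.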

How the data were processed

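Peak lists of 8 ChIP-Seq libraries were used, 6 of the histone marks and 2 of OLIG2. The authors mapped reads to mm10 with Bowtie2, called broad histone peaks with MACS2 and OLIG2 peaks with SPP, and removed blacklisted regions. Tool versions are not given in the sources used here. The deposited values are a ratio, the fold enrichment of each peak over its control, and the −log10 of its p-value and q-value (FDR). These files do not give the depth of a library. Every listed peak was used, without a filter, because the rule asks for listed peaks. The 3 input libraries and the 2 RIP-Seq libraries were not used here.

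Domains, classes and shares were computed in Python 3.11.15 with pandas 2.3.3, SciPy 1.17.1 and pysam 0.24.0, with a minimum overlap of 1 bp. Regions of all 4 classes were also recovered from simulated peaks. Shares have exact (Clopper-Pearson) 95% binomial intervals. A domain was assigned to a gene when a TSS of GENCODE M21 lay within 2 kb. Width and fold enrichment of a domain are those of its widest and its highest overlapping peak. The CpG ratio is the number of CpGs times the length over the product of C and G counts. Named genes were protein-coding genes at a domain: those of the 12 widest and the 8 highest OPC H3K27me3 peaks, the 8 highest OLIG2 and 6 highest NFO H3K4me3 values, every gene of 4 neural lists, and up to 6 of each other list. Some genes that meet this rule or stand in a marker list are not reported here by name, but are kept in the counts. The members and lists were chosen with earlier results of these data known. Widths are classed with the lower bound included. The results were recomputed with filtered peaks, other overlaps and other distances.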

Additional observations from a re-analysis of the deposited data

How the results depend on the processing

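With 1 library per group, no test and no left-out replicate was possible, and depth cannot be read from the lists. No paired analysis was possible because each group had 1 library. With histone peaks at FDR below 0.05 and fold above 3.5, and OLIG2 peaks at FDR below 0.05 and fold above 5, 804 domains were left, with NFO H3K27me3 at 44.8%, NFO H3K4me3 at 16.7%, OLIG2 at 9.83%, a TSS within 2 kb at 33.8% and a median OPC H3K27me3 width of 652.5 bp. With histone peaks above 5-fold the values were 194 domains, 51.0%, 24.7%, a TSS at 56.7% and 1778.5 bp. Requiring 200 bp shared by the NSC marks gave 41.6%, 23.4%, a TSS at 30.6% and 647 bp. NSC H3K27me3 peaks of at least 1 kb gave 593 domains, 52.6%, 24.1%, OLIG2 at 16.9%, a TSS at 35.8% and 981 bp. The shared bases alone gave 49.4%, 22.7%, OLIG2 at 10.3%, a TSS at 31.6% and 784 bp. Without domains over 50% repeat-masked, an alternative added after seeing the data, the values were 46.7%, 22.2%, a TSS at 32.2% and 665.5 bp. With no OPC H3K4me3 within 1 kb, the TSS share was 25.2%. It was 16.2% at 1 kb from a TSS and 23.9% for protein-coding genes alone. NFO H3K27me3 over at least 50% of the domain was found at 23.1%. The other values stayed within the interval of the reported share, or within 1.5 times the reported count. Of 79 named genes, 63 kept a domain of the class at 3.5-fold and 19 at 5-fold. The causes were not tested.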
